A study of Rattus norvegicus with 6 samples.

Results

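Integrins, laminins and the proteins of focal adhesions were described here as 49 of the 22396 genes of the count table, chosen by their symbols: every Itga or Itgb name, every laminin chain name, and Lims1, Lims2, Ilk, Parva, Parvb, Ptk2, Pxn, Tln1, Vcl and Fn1. Libraries were made from basal temporal lobe RNA, 1 per rat, from 3 SAH + 6-gingerol rats and 3 SAH + PBS rats. All were adult male Sprague-Dawley rats in which subarachnoid hemorrhage (SAH) had been modelled with the animal's own femoral artery blood placed in the cisterna magna. At 1 h after SAH they received 6-gingerol (10 mg/kg), a phenolic compound of ginger, or phosphate buffered saline (PBS) into the peritoneum, and tissue was taken at 24 h. The comparison asks how 6-gingerol alters transcripts in the injured brain, and since every rat had SAH and no sham rat was analysed here, no value shows what SAH itself did. Only rats that survived to 24 h entered either group.

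Integrins are pairs of an α and a β chain that span the cell membrane and hold cells to the extracellular matrix or to other cells. Laminins are three-chain (α, β, γ) proteins of basement membranes, which in brain surround blood vessels and the brain surface, and fibronectin is another matrix ligand. Inside the cell, talin and kindlins switch integrins on, while the complex of integrin-linked kinase, PINCH and parvin, together with paxillin, vinculin and focal adhesion kinase, ties them to actin. Integrins that pair with the β2 chain, or use α4, αE or β7, are carried by leukocytes, and the β2 family also by microglia, so these are given apart from the rest.

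The total counts ran from 62762808 to 66761380 over the 6 rats, and neuronal markers were abundant in every library (summed 3180 to 7850 CPM, counts scaled to the library size), so brain tissue was present in each. SAH + PBS replicate 2 stood apart. It was the highest of the 6 rats for 29 of the 47 members that passed the filter on low counts, whereas it was the highest for 36.1% of all 17096 genes tested. It was more than 2-fold above the mean of its group mates for 18 of these 47, against 11.7% of all genes tested. Choroid plexus and ependyma markers summed to 1130 CPM in SAH + PBS replicate 1 and 330 CPM in replicate 3 but only 4.78 to 8.49 CPM in the other 4 rats, so the SAH + PBS libraries also differed among themselves in these markers. Neuronal markers (7 of 7 matched) summed to 7130 to 7850 CPM with 6-gingerol and 3180 to 5630 CPM with PBS without overlap. Among them Gad1 (268 to 319 against 272 to 306 CPM) and Gad2 (282 to 410 against 283 to 316 CPM) overlapped, while the others did not. Astrocyte markers (6 of 6) summed to 2340 to 2800 CPM and 4000 to 5910 CPM, but Gfap, the filament protein of reactive astrocytes, carried this at 314 to 539 CPM against 2110 to 4410 CPM, and only 1 of the 6 log2 fold changes was negative. Slc1a3, a glutamate transporter, had 800 to 878 CPM against 564 to 811 CPM. Oligodendrocyte and pericyte or smooth muscle markers overlapped, at 3520 to 6780 against 2540 to 5080 CPM and at 199 to 266 against 138 to 239 CPM. The part of these differences in the values of the members was not tested.

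No member passed the correction over all genes. In edgeR's quasi-likelihood test 0 of 47 members had an adjusted p under 0.05 (0.0117% of all genes were called lower and 0.00585% higher), with adjusted p from 0.327 to 0.966. At an unadjusted p under 0.05 there were 9 members. Those with a negative log2 fold change (SAH + 6-gingerol over SAH + PBS) were 7 of 47, or 14.9%, against 8.71% of all genes: Itgal, Itgad, Itgb2, Itgax, Itga5, Parvb and Lims1. Those with a positive value were 2 of 47, or 4.26%, against 5.22% of all genes: Itgav and Lamc3. Without SAH + PBS replicate 2 there were 10 with a negative and 3 with a positive value, against 7.53% and 8.02% of all genes. DESeq2 gave 15 and 2, against 11.0% and 7.42%, and edgeR blocked by replicate number 5 and 2, against 5.57% and 4.24%. The count of 9 was 3, 5 and 2 without SAH + 6-gingerol replicates 1, 2 and 3, and 16, 13 and 18 without SAH + PBS replicates 1, 2 and 3. Of these fits, the share of all genes was counted only without SAH + PBS replicate 2, so the other counts cannot be set against it. DESeq2, the tool of the study's methods, called 3 members lower at an adjusted p under 0.05 (Itgal, Itgad and Itgb2) and 0 higher, where it called 3.0% of all genes lower and 1.28% higher. Limma-voom with sample quality weights called 2 members, Itgal and Itgad.

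Over all 47 members 36 log2 fold changes were negative and 11 positive, with a median of -0.29, beside 53.1% negative and a median of -0.028 over all genes tested. Without SAH + PBS replicate 2 the median of the members was -0.14, with 32 negative values (52.1% of all genes). DESeq2 and the block each gave 36 negative values, against 52.2% and 51.8% of all genes. The leukocyte integrins lay farthest from 0, with a median of -2.40 over 6 tested chains, and the members other than leukocyte integrins had a median of -0.29 over 41. The 3 SAH + 6-gingerol rats lay wholly below the SAH + PBS rats for 14 of 47 members, or 29.8%, against 13.4% of all genes, and wholly above them for 3 of 47, against 13.8% of all genes. The plot of fold changes by role shows these values with and without SAH + PBS replicate 2.

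**Figure D1:**
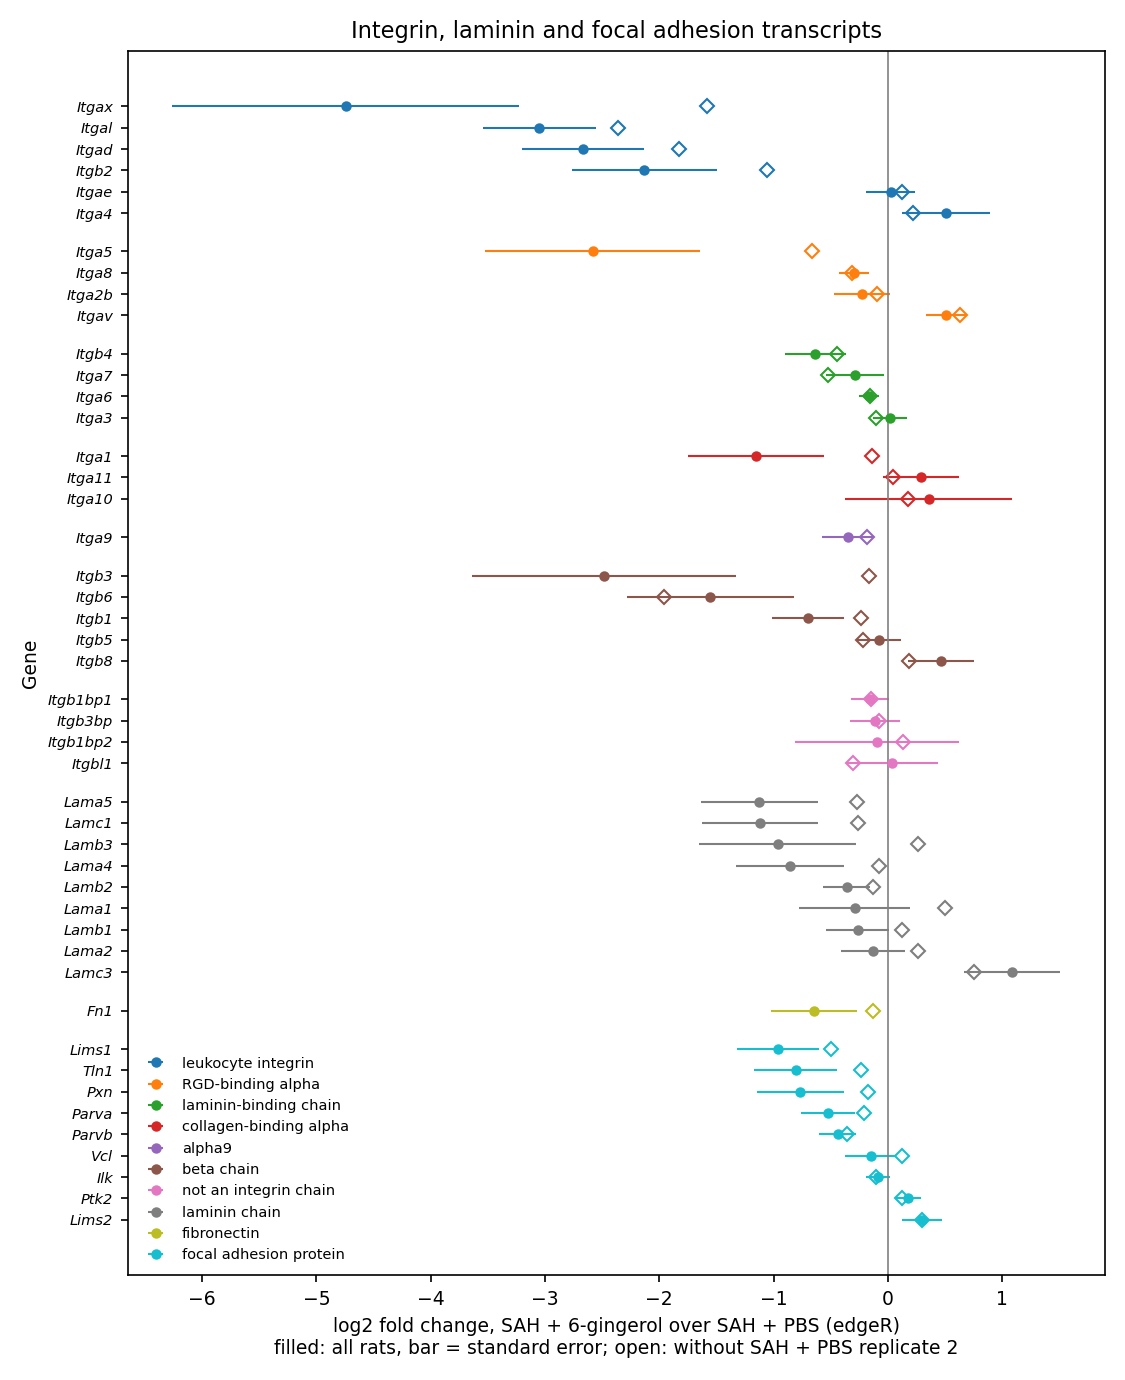
The log2 fold change (x axis, SAH + 6-gingerol over SAH + PBS, edgeR) of 46 of the tested members (y axis, coloured by role), with all rats as filled points with standard error bars and without SAH + PBS replicate 2 as open diamonds. The β2 integrin genes Itgax, Itgal, Itgad and Itgb2 lie from -4.74 to -2.13 and from -2.36 to -1.06 without that rat, whereas the median of the laminin chains moves from -0.61 to 0.025.

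The chains of the β2 integrins had lower counts in every SAH + 6-gingerol rat than in any SAH + PBS rat. Itgb2, the β2 chain (CD18) shared by this family, which leukocytes use to hold on to vessel walls and to engulf opsonized targets, had 12.5, 8.34 and 7.72 CPM with 6-gingerol. With PBS it had 21.8, 85.0 and 17.9 CPM. The groups did not overlap, and SAH + PBS replicate 2 exceeded the mean of its group mates 4.29-fold. The means were 9.51 ± 2.58 and 41.6 ± 37.7 CPM (SD, n = 3 each), a log2 fold change of -2.13 (standard error 0.64). This did not pass in edgeR (adjusted p = 0.347) or without SAH + PBS replicate 2 (log2 fold change -1.06, adjusted p = 0.132 in edgeR), and passed in DESeq2 (adjusted p = 0.0125). The 2-sided exact permutation test of the means gave p = 0.1, and no smaller value is possible with 3 rats per group. In bulk tissue, fewer cells of a type and less RNA per cell cannot be told apart.

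Itgal, the αL chain of LFA-1, a β2 integrin of lymphocytes and myeloid cells that binds ICAMs, had the smallest p of all members. It had 1.19, 1.68 and 1.69 CPM with 6-gingerol and 8.02, 22.1 and 7.64 CPM with PBS. Every SAH + PBS rat was thus well above every SAH + 6-gingerol rat, the lowest of them included. The means were 1.52 ± 0.283 and 12.6 ± 8.23 CPM (SD, n = 3 each), an 8.28-fold ratio, PBS over 6-gingerol. The log2 fold change of -3.05 (standard error 0.49) had an adjusted p of 0.327 in edgeR over all rats. It was -2.36 without SAH + PBS replicate 2 and then passed in edgeR (adjusted p = 0.0199), where 0.357% of all genes were called lower. DESeq2 called it with all rats (adjusted p = 1.7e-07).

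The gene model named Itgad, the αD chain of another β2 integrin of macrophages, had 11.2, 13.2 and 8.94 CPM with 6-gingerol and 40.8, 133 and 38.4 CPM with PBS. Again no value of one group reached the other. It gave a log2 fold change of -2.67 (standard error 0.54, adjusted p = 0.334 in edgeR), and it passed without SAH + PBS replicate 2 (-1.83, adjusted p = 0.0196) and in DESeq2 (adjusted p = 2.5e-05). In Rnor_6.0 the model spans 199495298 to 199623960 of chromosome 1, plus strand, and encloses all 21211 bases of the Itgax model (199555722 to 199576932) on the same strand. Its length, as implied by the deposited FPKM (fragments scaled to gene length and library size), was 7436 bases, whereas that of Itgax was 4675. In the RefSeq gene table of another assembly, GRCr8, the genes Itgam, Itgax and Itgad follow each other in this order with no gene between them. Itgam, the αM chain (CD11b) of microglia and neutrophils, was not analysed here under its own name. How reads of these related neighbours were divided between the models was not tested, so the values of Itgad and Itgax may not belong to those genes alone.

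Itgax, the αX chain (CD11c), a marker of dendritic cells and of some activated microglia, was scarce outside of 1 rat. It had 0.588, 0.202 and 0.652 CPM with 6-gingerol (37, 13 and 39 counts) and 1.94, 35.8 and 0.939 CPM with PBS (132, 2464 and 62 counts). SAH + PBS replicate 2 exceeded the mean of its group mates 24.8-fold, and the groups did not overlap. With all rats its log2 ratio was -4.74 (standard error 1.52, adjusted p = 0.347 in edgeR), and -1.58 without that rat (adjusted p = 0.291). DESeq2 gave no adjusted p for it.

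Itga4, the α4 chain of VLA-4, by which lymphocytes and monocytes bind VCAM-1, had 9.27, 11.1 and 8.31 CPM with 6-gingerol and 5.83, 3.70 and 10.6 CPM with PBS. Its groups overlapped (log2 fold change 0.51, adjusted p = 0.511 in edgeR), and SAH + PBS replicate 2 was the lowest rat, the value being 0.22 without it. Itgae, the αE chain of tissue lymphocytes, had 3.06 to 3.42 CPM with 6-gingerol and 2.90 to 3.59 CPM with PBS, a log2 fold change of 0.025 that turned to -0.098 when libraries were scaled by their totals and to between -0.030 and -0.016 without SAH + 6-gingerol replicate 1 or SAH + PBS replicate 1 or 3. The Itgae model shares bases with 5 other gene models, 4 of them on its own strand. Itgb7, the β7 chain that pairs with α4 and αE, did not pass the filter on low counts, with 8, 6 and 8 counts with 6-gingerol and 31, 183 and 6 counts with PBS. Its highest value was in SAH + PBS replicate 2, as for the β2 chains, and it was not tested.

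Per length of transcript the deposited FPKM of Itgb2 was 2.34 to 3.79 with 6-gingerol and 5.77 to 29.0 with PBS. That was 8.56% to 12.8% of the FPKM of Itgb1, the broadly expressed β1 chain, with 6-gingerol and 17.7% to 37.0% with PBS. The FPKM of Itgal, Itgad and Itgax together was 0.48 to 0.829 times that of Itgb2 with 6-gingerol and 1.11 to 1.24 times with PBS, so the α chains measured differed more between the groups than their β partner did. Itgax gave 25.1% of this α chain sum in SAH + PBS replicate 2 and 1.97% to 8.13% in the other 5 rats.

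**Figure D2:**
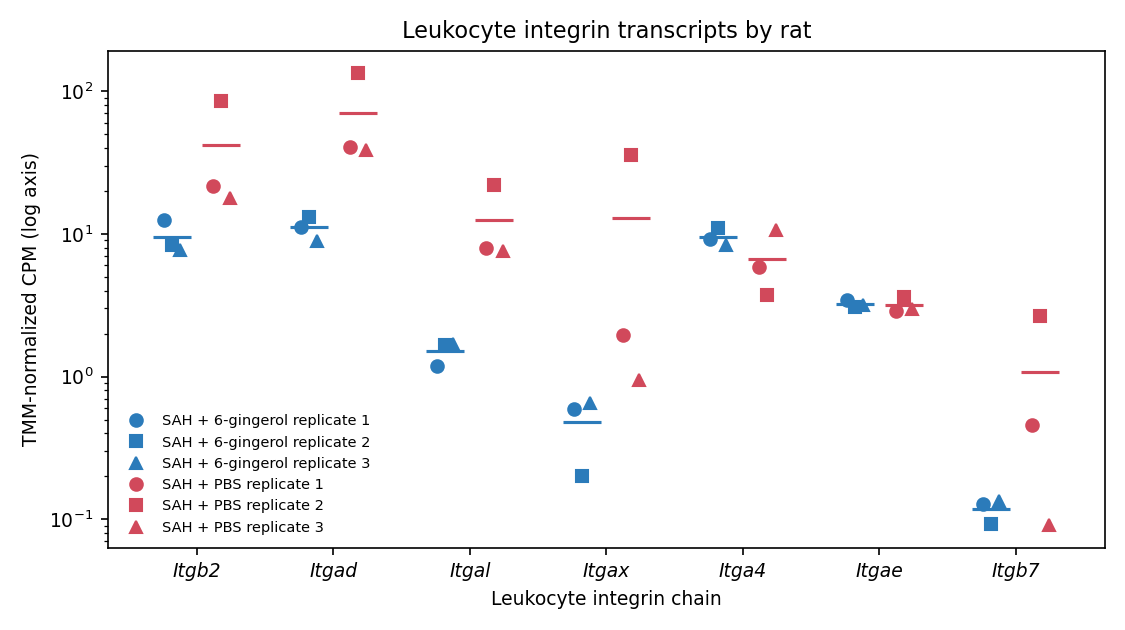
TMM-normalized CPM (y axis, log scale) of the 7 leukocyte integrin chains (x axis) in each rat, with SAH + 6-gingerol in blue, SAH + PBS in red, the replicate shown by the symbol and the group mean by a line. Itgb2, Itgad, Itgal and Itgax do not overlap between the groups, with SAH + PBS replicate 2 at the top, while Itga4 and Itgae overlap.

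Other leukocyte genes were read beside the β2 chains. The summed CPM of Itgb2, Itgad, Itgal and Itgax was 19.0 to 25.5 with 6-gingerol and 64.9 to 276 with PBS. Of 8 neutrophil markers 8 were matched and 4 passed the filter. The 8 together summed to 3.81 to 4.63 CPM with 6-gingerol and 5.71 to 52.8 CPM with PBS. Among them Mpo and Elane, granule enzymes made before neutrophils leave the marrow, were at or near 0 in every rat, at up to 0.0954 and 0.0581 CPM. S100a9, a calcium-binding protein of neutrophils, had 0.0954 to 0.401 CPM with 6-gingerol and 0.794 to 19.0 CPM with PBS. S100a8 did not overlap either, at 0 to 0.201 against 0.441 to 9.67 CPM. The same held for Cxcr2 (0 against 0.121 to 2.15 CPM) and Fcnb (0.0621 to 0.0669 against 0.182 to 3.18 CPM), while Mmp8 overlapped. Each of these was highest in SAH + PBS replicate 2 and at 1.3 CPM or less in every other rat. Most of the neutrophil sum outside SAH + PBS replicate 2 was Csf3r, which overlapped, at 3.56 to 4.1 CPM with 6-gingerol and 3.93 to 14.4 CPM with PBS. Border and blood-borne macrophage markers (6 matched of 7) summed to 26.8 to 32.8 CPM against 26.5 to 68.3 CPM and overlapped. Microglial markers (8 of 8 matched) summed to 313 to 326 CPM with 6-gingerol and 297 to 325 CPM with PBS. Of the 7 tested, 2 had a negative log2 fold change, and single markers went both ways without overlap. P2ry12, a receptor of resting microglia, had 16.3 to 18.5 CPM against 3.18 to 12.7 CPM. Gpr34 (14.1 to 15.9 against 3.09 to 11.3 CPM) and Sall1 (35.8 to 37.0 against 24.7 to 34.1 CPM) were higher with 6-gingerol too. Csf1r, the largest part of the sum, was lower, at 112 to 122 CPM against 125 to 140 CPM. T and NK cell markers (6 of 6 matched) summed to 2.57 to 4.91 CPM against 3.21 to 3.42 CPM, mostly Lck (1.95 to 4.43 CPM). Cd3d, Cd3e and Cd3g, the chains of the T cell receptor complex, were at 0.35 CPM or less in every rat, and Cd2 reached 0.9 CPM in SAH + PBS replicate 2. A count of 0 allows up to 0.0501 CPM in the shallowest library, counting error only. The part of cell numbers in the β2 values was not tested.

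**Figure D3:**
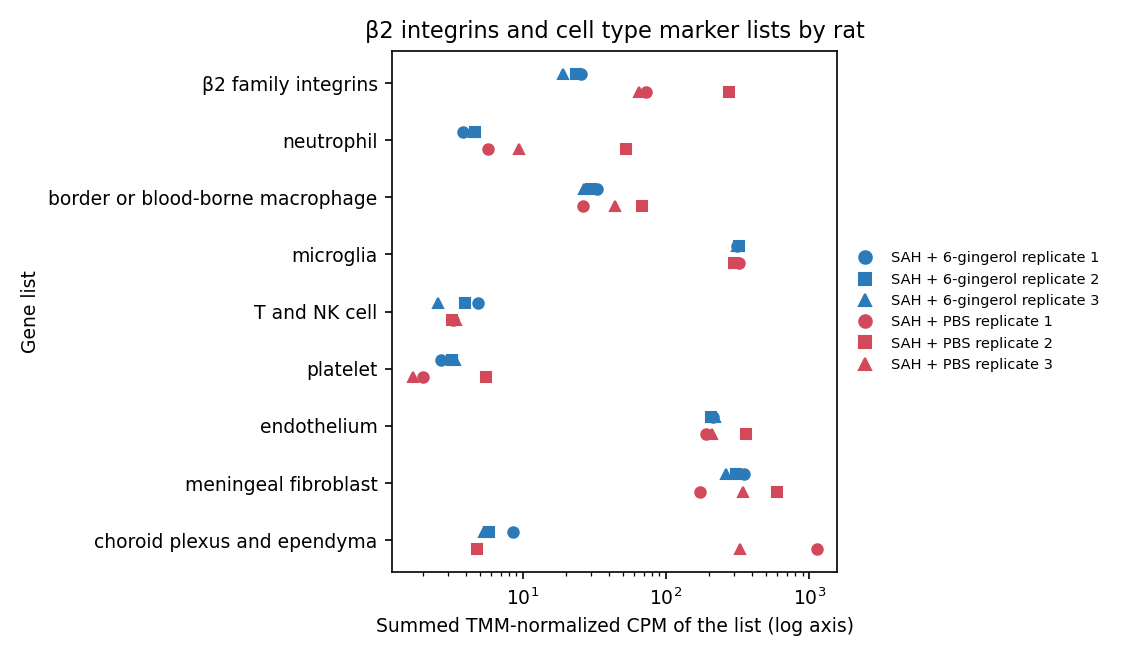
Summed TMM-normalized CPM (x axis, log scale) of the 4 β2 integrin genes and of 8 cell type marker lists (y axis) in each rat, with SAH + 6-gingerol in blue, SAH + PBS in red and the replicate shown by the symbol. The sums of the β2 genes and of the neutrophil markers do not overlap between the groups, whereas the microglial sums, at 297 to 326, do. Taken alone, the microglial markers Csf1r and P2ry12 differ in opposite directions without overlap. Csf3r, most of the neutrophil sum outside SAH + PBS replicate 2, overlaps when taken alone.

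Outside the leukocyte chains, 17 integrin chains were tested, 12 with a negative and 5 with a positive log2 fold change and a median of -0.29. Leaving out SAH + PBS replicate 2 gave -0.16. Among the α chains that recognize the RGD sequence of matrix ligands, Itgav and Itga5 went opposite ways. Itgav, the αv chain, had 39.1, 37.1 and 42.0 CPM with 6-gingerol and 29.3, 32.2 and 21.4 CPM with PBS. The groups did not overlap, and every SAH + 6-gingerol rat was the higher. Its means were 39.4 ± 2.47 and 27.7 ± 5.60 CPM (SD, n = 3 each), with a log2 fold change of 0.51 (standard error 0.17) that failed the correction (adjusted p = 0.347 in edgeR). It was 0.63 without SAH + PBS replicate 2 and 0.38 with libraries scaled by their totals.

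The β partners of αv differed from each other. Itgb8, whose pair with αv releases active TGF-β from its latent form and which astrocytes and other neural cells use toward vessels, had 43.9, 39.3 and 39.6 CPM with 6-gingerol and 34.5, 17.1 and 37.3 CPM with PBS. Again the SAH + 6-gingerol rats were all the higher, with a log2 fold change of 0.47 (adjusted p = 0.445 in edgeR), 0.19 without SAH + PBS replicate 2. Itgb5 had 30.3 to 34.7 CPM against 27.9 to 44.8 CPM and overlapped, with a log2 fold change of -0.081 that became -0.22 without SAH + PBS replicate 2 and turned to 0.13 without replicate 3. Itgb3, the β3 chain of platelets, osteoclasts and growing vessels, was at 0.382 to 0.685 CPM with 6-gingerol and at 0.294, 7.81 and 0.909 CPM with PBS, so its log2 fold change of -2.48 became -0.16 without SAH + PBS replicate 2. Itgb6, an epithelial chain, had its high value in another rat, with 0.435 to 0.970 CPM against 3.90, 0.668 and 1.14 CPM. Its log2 fold change of -1.55 became -0.48 without SAH + PBS replicate 1 and -1.96 without replicate 2. SAH + PBS replicate 1, the rat with 3.90 CPM, was the one with the most choroid plexus and ependyma markers. Replicate 3, the next in these markers, had 1.14 CPM, and a link between them and Itgb6 was not tested.

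Itga5, the α5 chain of the main fibronectin receptor, had 3.75, 3.74 and 4.23 CPM with 6-gingerol and 7.13, 57.9 and 5.26 CPM with PBS. SAH + PBS replicate 2 exceeded the mean of its group mates 9.34-fold, and they still lay above every SAH + 6-gingerol rat. It gave a log2 fold change of -2.58 (standard error 0.94, adjusted p = 0.349 in edgeR) with all rats and -0.66 (adjusted p = 0.215) without that rat, and DESeq2 gave no adjusted p. Itga8 and Itga2b, the α8 chain and the αIIb chain of platelets, had log2 fold changes of -0.29 and -0.22 (-0.31 and -0.097 without that rat) and did not overlap between the groups either. Itga2b stayed at 1.81 to 2.61 CPM in all rats, while platelet markers (5 matched of 6) summed to 1.70 to 5.58 CPM.

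The bases before the RefSeq gene starts are printed for 3 of these genes, chosen after their values were seen. They are the leukocyte gene Itgax and the RGD-binding chains Itga5 and Itgav, which lay on opposite sides of 0, and they show how unlike these promoters are in CG content. Each run is the 250 bases before the start in GRCr8, 5′ to 3′ on the gene's strand, with every CG dinucleotide in capitals: Itgax at chr1:192149799-192150048 (plus strand), Itga5 at chr7:136381306-136381555 (minus strand) and Itgav at chr3:89245132-89245381 (plus strand).
Itgax: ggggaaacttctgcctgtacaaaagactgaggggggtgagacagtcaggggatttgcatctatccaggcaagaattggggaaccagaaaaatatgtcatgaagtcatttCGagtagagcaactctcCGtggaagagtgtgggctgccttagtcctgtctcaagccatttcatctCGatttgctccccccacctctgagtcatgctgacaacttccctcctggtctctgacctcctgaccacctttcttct
Itga5: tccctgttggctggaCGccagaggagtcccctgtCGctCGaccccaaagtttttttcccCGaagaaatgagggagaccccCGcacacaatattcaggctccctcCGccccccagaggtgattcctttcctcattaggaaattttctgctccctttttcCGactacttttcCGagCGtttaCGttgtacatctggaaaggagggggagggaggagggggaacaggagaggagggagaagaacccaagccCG
Itgav: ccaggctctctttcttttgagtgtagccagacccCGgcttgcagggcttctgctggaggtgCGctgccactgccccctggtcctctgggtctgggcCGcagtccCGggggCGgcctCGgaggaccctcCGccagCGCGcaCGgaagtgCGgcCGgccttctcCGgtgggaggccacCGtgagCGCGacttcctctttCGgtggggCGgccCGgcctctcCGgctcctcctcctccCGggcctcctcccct
The numbers of CG dinucleotides were 3, 11 and 21. The ratio of observed to expected CG was 0.189 for Itgax, 0.569 for Itga5 and 0.653 for Itgav, and its median over all 33469 promoters of the table was 0.383. Of the 49 members 34 were matched by gene ID, 4 of them leukocyte integrins (Itgax, Itga4, Itgae and Itgb7) with a median ratio of 0.193, and the other 30 had a median of 0.563. The letters GAGGAA, the core read by PU.1, a transcription factor of myeloid cells, were searched on both strands. They stood in 1 of the 4 leukocyte promoters (Itgae) and in 11 of the other 30, against 23.3% of all promoters. Itgal, Itgad and Itgb2 were not matched, so their promoters were not searched. GGGCGG, read by Sp1, was found on either strand in 0 of the 4 and 17 of the 30, against 30.5% of all. These letters describe the windows only.

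Among the laminin-binding chains, Itga6, the α6 chain that pairs with β1 or β4, had 78.8, 80.0 and 75.6 CPM with 6-gingerol and 83.3, 88.5 and 90.6 CPM with PBS. The groups did not overlap, with a log2 fold change of -0.16 (standard error 0.090, adjusted p = 0.411 in edgeR). Itga3, another of these chains, had 38.1, 38.3 and 39.0 CPM against 39.0, 31.1 and 43.7 CPM, with a log2 fold change of 0.019 that turned to -0.096 with libraries scaled by their totals and to -0.10 without SAH + PBS replicate 2. Itga7 (-0.29, and -0.52 without that rat) and Itgb4 (-0.63 and -0.45), the β4 chain of hemidesmosomes, overlapped between the groups. Itga9, a chain that binds tenascin and VCAM-1, had 3.85, 3.98 and 4.68 CPM against 4.68, 6.49 and 4.77 CPM. Its highest SAH + 6-gingerol rat reached the lowest SAH + PBS rat, and its log2 fold change of -0.35 became -0.18 without SAH + PBS replicate 2.

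Of the collagen-binding chains, Itga1 had 6.17, 5.73 and 6.82 CPM with 6-gingerol and 5.50, 27.9 and 8.26 CPM with PBS, so its log2 fold change of -1.15 became -0.14 without SAH + PBS replicate 2. Itga11 had 5.18, 3.65 and 5.82 CPM against 4.10, 2.54 and 5.33 CPM. It overlapped, with a log2 fold change of 0.29 that became 0.050 without that rat. Itga10 overlapped too, at 0.36, which became 0.18 without that rat and turned to -0.19 without SAH + 6-gingerol replicate 2. Itga2, the α2 collagen receptor chain, was listed at 0 in 4 rats and had 61 and 393 counts in SAH + PBS replicates 1 and 2. It did not pass the filter, and it belongs to 185 genes listed at 0 in some libraries with a median of at least 100 counts in the others.

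Itgb1, the β1 chain that pairs with most matrix-binding α chains, was the most abundant integrin chain per length. It had 113, 100.5 and 105 CPM with 6-gingerol and 132, 267 and 117 CPM with PBS. No SAH + 6-gingerol rat reached the lowest SAH + PBS rat. Group means were 106 ± 6.56 and 172 ± 82.2 CPM (SD, n = 3 each). On the log2 scale the difference was -0.70 (standard error 0.31, adjusted p = 0.371 in edgeR), and -0.23 without SAH + PBS replicate 2.

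The 4 members matched by the name pattern that are not integrin chains had small log2 fold changes. Itgb1bp1, which binds the tail of β1, Itgb3bp, Itgb1bp2 and Itgbl1 had values from -0.16 to 0.037 with overlap in each. The sign turned for Itgbl1 without SAH + PBS replicate 2 (-0.30), without SAH + 6-gingerol replicate 1 and with library totals, for Itgb1bp2 without that SAH + PBS rat (0.13) or SAH + 6-gingerol replicate 1 or 2, and for Itgb3bp without SAH + 6-gingerol replicate 1. The 2 models overlapping Itgb3bp on the opposite strand cover 131802 and 68063 bases of it.

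Of the laminin chains 10 were matched and tested. Their log2 fold changes were negative in 9 and positive in 1, with a median of -0.61, and the median was 0.025 with 5 negative values without SAH + PBS replicate 2. That rat was the highest of all 6 for 9 of the 10, and more than 2-fold above the other SAH + PBS rats for 6 of them. Lamc1, the γ1 chain found in most laminins, had 69.9, 64.6 and 64.7 CPM with 6-gingerol and 89.4, 273 and 69.6 CPM with PBS. The third SAH + PBS rat lay within the SAH + 6-gingerol range, and the log2 fold change of -1.12 (standard error 0.51, adjusted p = 0.371 in edgeR) became -0.26 without SAH + PBS replicate 2. Lama4 and Lama5, the α chains of vessel laminins, behaved alike, at -0.85 and -1.12 with all rats and at -0.079 and -0.27 without that rat. Lamb1, a β chain, had 62.8, 71.0 and 73.4 CPM with 6-gingerol and 65.5, 122 and 60.9 CPM with PBS. The groups overlapped, and its -0.26 turned to 0.13 without that rat, while Lamb2, another β chain, went from -0.36 to -0.13. Lama1, Lama2 and Lamb3 turned from -0.29, -0.13 and -0.96 to 0.50, 0.26 and 0.26 in the same way.

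Lamc3, the γ3 chain, was the laminin that went the other way. It had 14.2, 12.5 and 17.7 CPM with 6-gingerol and 6.68, 3.31 and 10.9 CPM with PBS. The groups did not overlap, SAH + PBS replicate 2 being the lowest rat. Its means were 14.8 ± 2.69 and 6.95 ± 3.78 CPM (SD, n = 3 each), with a log2 fold change of 1.09 (standard error 0.42, adjusted p = 0.354 in edgeR) and 0.75 without that rat.

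Fn1, fibronectin, the matrix ligand of α5β1 and αv integrins, had 101, 78.9 and 77.8 CPM with 6-gingerol and 75.5, 215 and 113 CPM with PBS. The groups overlapped, with the lowest value in the SAH + PBS group. It gave a log2 fold change of -0.65 (standard error 0.37, adjusted p = 0.424 in edgeR) and -0.13 without SAH + PBS replicate 2. The sums of the endothelial markers (6 matched of 8) and the meningeal fibroblast markers (6 of 6) were also highest in that rat, at 360 CPM and 596 CPM against 189 to 220 CPM and 172 to 351 CPM in the other 5 rats. Single markers differed: Slco1a4, a transporter of brain endothelium, was lowest there, at 15.3 CPM, Cldn5, a tight junction protein, was listed at 0 in the other 5 rats, and Ogn and Lum, matrix proteins of fibroblasts, were not highest there, at 16.0 and 15.9 CPM. The part of vessel or meningeal tissue in the matrix values was not tested.

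Among the 9 cytoplasmic proteins of focal adhesions, 7 log2 fold changes were negative and 2 positive, with a median of -0.44 (-0.17 without SAH + PBS replicate 2), and 5 of 9 lay lower without overlap (13.4% of all genes): Lims1, Parvb, Parva, Tln1 and Pxn. Lims1 encodes PINCH1, an adaptor that binds integrin-linked kinase. It had 12.6, 10.6 and 11.7 CPM with 6-gingerol and 20.2, 35.1 and 12.8 CPM with PBS. The third SAH + PBS rat was barely above the highest SAH + 6-gingerol rat. Its means were 11.7 ± 1.03 and 22.7 ± 11.4 CPM (SD, n = 3 each), with a log2 fold change of -0.96 (standard error 0.36, adjusted p = 0.349 in edgeR) that became -0.50 without SAH + PBS replicate 2. Lims1 is also among the genes the study singled out on these same libraries, so its place here is not independent evidence. Lims2, the related PINCH2, had 9.58 to 12.95 CPM against 8.31 to 9.77 CPM, with a log2 fold change of 0.30 and overlap. A pair of gene models overlaps it on the opposite strand, among them Gpr17.

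Parvb, β-parvin, an actin-binding partner of integrin-linked kinase, had 92.1, 94.6 and 72.7 CPM with 6-gingerol and 98.4, 130 and 123 CPM with PBS. The lowest SAH + PBS rat was just above the highest SAH + 6-gingerol rat. It gave a log2 fold change of -0.44 (standard error 0.16, adjusted p = 0.348 in edgeR) with all rats and -0.36 without SAH + PBS replicate 2. Parva, α-parvin, had -0.52 and -0.21 in the same order. Ilk, the integrin-linked kinase itself, had 76.7, 70.9 and 76.6 CPM against 73.7, 77.4 and 86.5 CPM, with overlap and a log2 fold change of -0.084 (standard error 0.10, adjusted p = 0.683 in edgeR).

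Tln1, talin 1, which binds β tails and activates integrins, had 74.1, 67.1 and 66.2 CPM with 6-gingerol and 81.4, 200.3 and 81.2 CPM with PBS. Pxn, the scaffold paxillin, had 33.1, 30.9 and 33.5 CPM against 38.5, 92.4 and 34.7 CPM. In both the groups did not overlap and 1 SAH + PBS rat was far above the other 5 rats. Their log2 fold changes of -0.81 and -0.76 (adjusted p = 0.371 and 0.388 in edgeR) became -0.23 and -0.17 without SAH + PBS replicate 2. Vcl, vinculin, which links talin to actin, overlapped, at -0.15, and turned to 0.12 without that rat. Ptk2, focal adhesion kinase, had 99.7, 100.2 and 114 CPM against 102, 86.3 and 89.6 CPM, with overlap and a log2 fold change of 0.17 (adjusted p = 0.454 in edgeR).

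Levels can be set against each other per length only, in the deposited FPKM averaged over all 6 rats. The highest means were 44.4 FPKM for Ilk, 38.6 for Itgb1, 27.0 for Ptk2 and 26.9 for Parvb, and these 4 kept their order without SAH + PBS replicate 2, at 43.7, 30.7, 27.4 and 24.96 FPKM. Neighbours in this order were not separated by the spread between rats. Ilk had 39.4 to 50.6 FPKM, Itgb1 26.5 to 78.3, Ptk2 25.0 to 29.8 and Parvb 18.2 to 36.8 FPKM. Next among the integrin chains came Itga6 (13.9), Itgav (10.2), Itgb8 (10.01), Itgb5 (8.75) and Itgb2 (8.44), the last set largely by SAH + PBS replicate 2. Among laminin chains Lamc1 was highest over all rats, but its 48.9 FPKM in SAH + PBS replicate 2 set this, and over the other 5 rats Lamc1 (11.8), Lamb1 (11.6) and Lamb2 (11.9) were level. The most abundant α chain was Lama4 (6.22 over all rats). Itga2, Itgb6, Itgb7 and Itga10 had means of 0.305 FPKM or less.

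**Figure D4:**
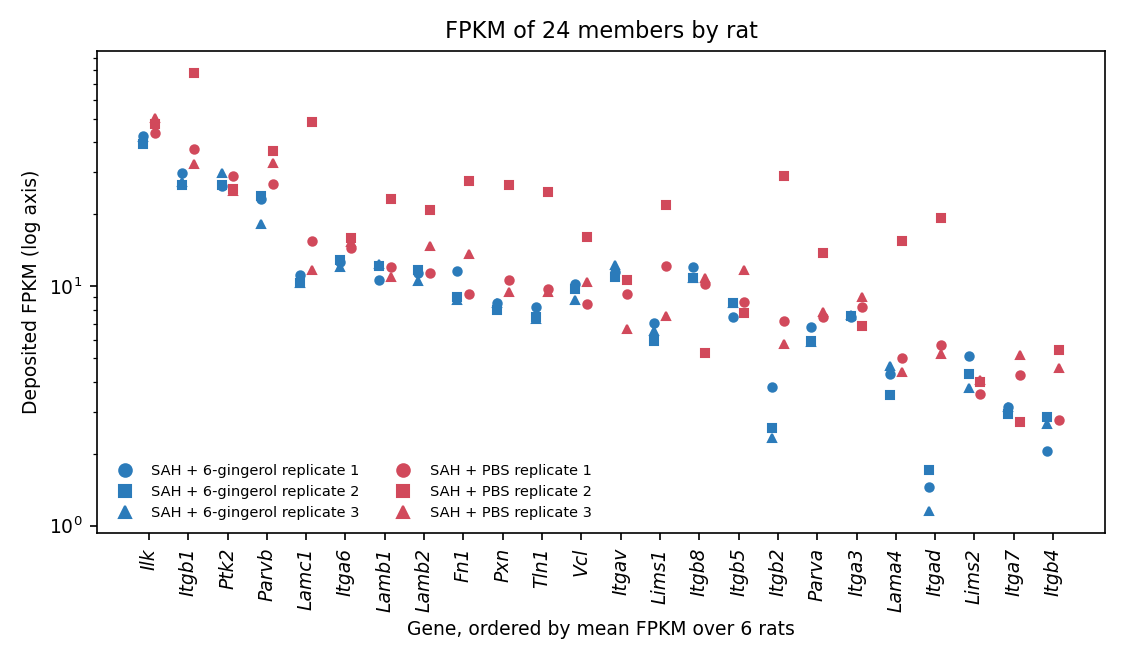
Deposited FPKM (y axis, log scale) of 24 members of high mean FPKM, the 4 that are not integrin chains left out (x axis, in falling order) in each rat, with SAH + 6-gingerol in blue, SAH + PBS in red and the replicate shown by the symbol. SAH + PBS replicate 2 lies above the other rats for Itgb1, Lamc1, Pxn, Tln1 and Itgb2, while Ilk, Ptk2 and Itga6 lie close together in all 6 rats.

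Other genes of the same machinery were read from a fixed list of 54. Of 29 further cytoplasmic regulators 28 were matched and tested, with 22 negative and 6 positive log2 fold changes and a median of -0.26 (-0.048 without SAH + PBS replicate 2). At an unadjusted p under 0.05, 4 were lower and 2 higher, or 14.3% and 7.14%, against 8.71% and 5.22% of all genes. None passed the correction in edgeR (0 of 28), while DESeq2 called 1 lower, where it called 3.0% of all genes lower. That gene was Fermt3, kindlin-3, the kindlin of blood cells, which is needed to activate β2 integrins. It had 5.96, 5.28 and 4.56 CPM with 6-gingerol and 9.99, 43.3 and 10.8 CPM with PBS, without overlap. Its log2 fold change was -2.02 (adjusted p = 0.347 in edgeR) and -0.98 without SAH + PBS replicate 2. Rasgrp2, an activator of Rap1, had 18.7, 15.5 and 18.9 CPM against 11.9, 8.94 and 14.6 CPM, without overlap and with a log2 fold change of 0.58 (0.42 without that rat). Fermt2, the kindlin of most tissues, had 105, 88.2 and 109.6 CPM against 147, 159 and 108 CPM. Its groups overlapped, with a log2 fold change of -0.45 (-0.34 without that rat). Vasp, an actin regulator, had 14.8, 14.2 and 12.7 CPM against 19.9, 46.4 and 16.0 CPM, without overlap, and its log2 fold change of -0.98 became -0.37 without that rat.

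Of 25 ligands and partners of integrins 24 were matched and 22 tested, with 16 negative values and a median of -0.77. Leaving out SAH + PBS replicate 2 gave 0.029. At an unadjusted p under 0.05, 6 were lower and 1 higher, or 27.3% and 4.55%, against 8.71% and 5.22% of all genes, and 0 passed the correction in edgeR with all rats. DESeq2 called 2 lower and 1 higher, where it called 3.0% and 1.28% of all genes. Icam1, the endothelial ligand of β2 integrins, had 5.45, 4.67 and 5.30 CPM with 6-gingerol and 11.7, 74.0 and 8.23 CPM with PBS, a log2 fold change of -2.61 (adjusted p = 0.347 in edgeR) and -0.95 without SAH + PBS replicate 2. C3, whose fragment iC3b is bound by β2 integrins, had 9.73, 9.88 and 7.72 CPM with 6-gingerol and 26.1, 40.8 and 35.3 CPM with PBS. Its groups did not overlap, and it was the only one of these lists to pass in edgeR without that rat (log2 fold change -1.75, adjusted p = 0.0272), and -1.90 with all rats did not pass (adjusted p = 0.181). Spp1, osteopontin, a ligand of αv and other integrins, had 2.81, 2.14 and 1.47 CPM with 6-gingerol and 5.24, 1092 and 22.6 CPM with PBS. Its log2 fold change of -7.44 (adjusted p = 0.347 in edgeR) became -2.70 without SAH + PBS replicate 2. Vtn, vitronectin, a ligand of αv integrins, had 44.1, 40.2 and 32.8 CPM with 6-gingerol and 22.5, 12.1 and 23.97 CPM with PBS. Like Itgav it was higher in every SAH + 6-gingerol rat, with a log2 fold change of 1.00 (adjusted p = 0.343 in edgeR) that passed in DESeq2 (adjusted p = 0.0288).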

How the data were processed

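RNA of 3 SAH + 6-gingerol and 3 SAH + PBS rats was sequenced, 1 library per rat. Sample titles gave the groups and replicate numbers. In the tables the SAH + 6-gingerol columns are headed Control, a name that the titles repeat beside the treatment. The authors deposited raw counts and FPKM for 22396 genes. Build Rnor_6.0 and the tools StringTie 1.3.3b, HISAT2 2.1.0 and limma 3.32.10 are listed, without their use, in the submitters' processing notes, whereas STAR and DESeq2 stand in the paper's methods. Neither source gives the counter or the strandedness, so reads of the opposite-strand genes that overlap 11 members cannot be told apart from theirs.

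Counts were filtered with edgeR 4.0.16 (R 4.3.3) by filterByExpr (minimum count 10, minimum total 15), TMM-normalized (factors 0.954 to 1.08) and tested with glmQLFit and glmQLFTest over 17096 genes with Benjamini-Hochberg adjustment, after a test on simulated data. Standard errors are the log2 fold change over the square root of F. CPM are TMM-normalized. Alternatives were other scalings and filters, DESeq2 1.42.0, limma 3.58.1 (voom with and without quality weights, and log2(FPKM + 1) or log2(FPKM + 0.1)), a fit blocked by replicate number, and fits without each rat or without the genes listed at 0.

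The members and lists were chosen with earlier results of these data known. Members named with values in every rat are those at an unadjusted p under 0.05, the 2 of highest FPKM per role, the β2 chains, Fn1 and Lims1, and of the wider list the 4 of smallest p among cytoplasmic regulators and among ligands. Other members were named after their values were seen, to account for all. Protein sequences were not used here. Itgam was not analysed here. The values of 1 laminin chain are not reported here, though it is counted in the lists. The p-values measure the spread between these rats only. Promoter sequences are from RefSeq (GRCr8), whose coordinates were not mixed with those of Rnor_6.0.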

Additional observations from a re-analysis of the deposited data

How the results depend on the processing

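Over 17 other fits the 21 followed members gave 354 log2 fold changes, of which 340 kept their sign without passing the threshold, 7 passed it and 7 turned sign. The 340 include Itga5 and Itgax in DESeq2, which kept their sign but had no adjusted p. Of these 21, those that turned were Itga3, to -0.096 (library totals), -0.10 (without SAH + PBS replicate 2), -0.043 (limma-voom with quality weights), -0.077 (log2(FPKM + 1)) and -0.085 (log2(FPKM + 0.1)), and Lamb1, to 0.13 (without SAH + PBS replicate 2, where leaving out each rat gave -0.45 to 0.13) and 0.049 (quality weights). The count of members past the correction went from 0 to 3 in DESeq2 and 2 with quality weights, and was 0 to 2 when leaving out each rat. The 9 members at an unadjusted p under 0.05 became 17 in DESeq2 and 14 with library totals, and 2 to 18 when leaving out each rat. The share of all genes was not counted with library totals or for most left-out rats. These moves are therefore not read as particular to the members. The calls over all genes, 3 in edgeR, were 0 with at least 1 CPM in every rat and without genes listed at 0 in some libraries, 700 in DESeq2, 147 with quality weights, 5 on log2(FPKM + 0.1), and 0 to 91 when leaving out each rat. The wider list gave 0 calls in edgeR, 4 in DESeq2 and 1 with quality weights, and 0 to 1 when leaving out each rat. The median of the leukocyte integrins was -1.46 on log2(FPKM + 1) and -2.97 to -1.32 when leaving out each rat, and it was -2.86 for the β2 family only. That of the other integrin chains was -0.40 with library totals, -0.23 in limma-voom and -0.12 with quality weights, and -0.30 to -0.16 when leaving out each rat. That of the laminin chains was -0.86 to 0.025 when leaving out each rat and 0.010 with quality weights, and that of the focal adhesion proteins -0.55 to -0.17. The cause of these moves was not tested. The 17 members without overlap became 17 to 25 when leaving out each rat, a count that can only stay or rise with fewer rats. Its share over all genes was not counted there, so nothing is read from the rise. Fits that give no level per rat have no such count. Library totals moved the median of all genes from -0.028 to -0.15, and with that scaling 39 of 47 members were negative.

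With the replicate number as a block, edgeR called 0 of all genes and 0 members, and 7 members had an unadjusted p under 0.05. Same-numbered rats did not deviate together (correlations of -0.0415, 0.00647 and 0.00913 for numbers 1, 2 and 3). With 3 rats per group these values cannot exclude a pairing. Depth limits the scarcest members, such as Itgax with 13 to 39 counts in the SAH + 6-gingerol rats.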
